A study of Mus musculus with 12 samples.

Results

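Polycomb repressive complex 2 (PRC2) is the enzyme complex that places the repressive methyl mark on lysine 27 of histone H3. Its genes were followed here in BRCA2-deficient mouse medulloblastoma and in cerebellum. The 10 genes were taken by symbol from the deposited table of 24091 genes, and all 10 had a value in each of the 12 samples. They were the methyltransferases Ezh1 and Ezh2, the core subunits Eed and Suz12, the histone-binding subunits Rbbp4 and Rbbp7, and the accessory subunits Jarid2, Mtf2, Phf19 and Phf1.

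The 12 RNA samples fell into 4 groups of 3. Medulloblastomas came from mice GB344, GB359 and GB370, which carried the Brca2 mutation (deletion of exons 3 and 4, Brca2 Δex3-4) on a Trp53-/- background, and the adjacent cerebellum came from the same 3 mice. Tumor-free cerebellum came from 3 mice with mutant Brca2 and wild-type Trp53 (mice GB361, GB508 and GB512, below called Brca2 mutant cerebellum) and from 3 mice with wild-type Brca2 and mutant Trp53 (mice GB517, GB519 and GB520, below called Trp53 mutant cerebellum). The study calls the controls age-matched adult mice. Tumor-bearing mice were watched for tumors or a humane endpoint, and the age of each mouse is not given in the sources used here. In the study's model the Brca2 exons are lost where a Cre recombinase driven by the human GFAP promoter was active in the developing central nervous system, so a piece of cerebellum holds recombined and unrecombined cells. Trp53 is lost in every cell, through a cassette that replaces exons 2 to 6. The tumors shared mutant Brca2 with the first control group and mutant Trp53 with the second, and no group was wild type for both genes. The labels do not give the Cre status of the control mice. Nothing beyond the mouse numbers says how the samples were taken, so the p-values measure the spread between these samples. For tumors against adjacent cerebellum the main fit treated samples of the same mouse as independent.

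Expression was given in TPM, a transcript level corrected for transcript length and scaled to a fixed library total, so that genes can be compared within a sample. Read counts behind the TPM were not used, and the depth of each library is unknown. Between 15088 and 15803 genes reached 1 TPM in a sample. The summed TPM of Trp53 was 124 to 130 in tumors, 66.1 to 85.0 in adjacent cerebellum, 47.1 to 49.4 in Trp53 mutant and 33.1 to 37.2 in Brca2 mutant cerebellum, and that of Brca2 was 8.22 to 14.6 in tumors and 3.24 to 4.40 in the 2 control groups. These gene-level sums include exons outside the altered ones, so they do not check the genotype labels.

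EZH1 and EZH2 are alternative catalytic subunits of PRC2. EED binds the methyl mark and stimulates the enzyme, and SUZ12 holds the complex together. RBBP4 and RBBP7 are histone chaperones that also serve in NuRD and SIN3 and, for RBBP4, in CAF-1 and the MuvB core. A PRC2 particle carries either a Polycomb-like protein (PHF1, MTF2 or PHF19) or JARID2 with AEBP2, and these accessory proteins help it reach its target genes. EZH2 is typical of dividing cells, including cerebellar granule cell progenitors, from which Sonic Hedgehog medulloblastomas arise, and EZH1 of cells that have left the cell cycle.

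The promoters of 4 of these genes are shown because the E2F-type site, a cell cycle promoter element, was found in 3 of them. The fourth is Ezh1, which was lower in tumors where Ezh2 was higher. The stretches are from RefSeq on GRCm38.p6, the same assembly as the authors' mm10, and read 5′ to 3′ along the gene. Those of Ezh2 and Ezh1 span the annotated transcript starts at 47595030 and 101226463, and those of Suz12 and Phf19 lie upstream of the starts at 79993106 and 34913976. The gene spans of Ezh2 and Phf19 reach further upstream, to 47595270 and 34914353. Their stretches thus lie within the gene spans, and positions are counted from the starts given here. Capitals mark the E2F-type 8-mer.

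Ezh2, chr6:47595016-47595135, minus strand: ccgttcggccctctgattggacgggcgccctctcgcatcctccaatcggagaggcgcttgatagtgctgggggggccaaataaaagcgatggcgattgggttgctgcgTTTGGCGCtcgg
Ezh1, chr11:101226449-101226568, minus strand: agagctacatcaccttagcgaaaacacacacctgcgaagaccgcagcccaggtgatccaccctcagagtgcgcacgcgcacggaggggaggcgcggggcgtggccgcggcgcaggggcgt
Suz12, chr11:79992856-79992975, plus strand: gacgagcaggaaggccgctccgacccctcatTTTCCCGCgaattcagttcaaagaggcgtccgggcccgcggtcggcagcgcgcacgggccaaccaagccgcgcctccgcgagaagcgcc
Phf19, chr2:34914107-34914226, minus strand: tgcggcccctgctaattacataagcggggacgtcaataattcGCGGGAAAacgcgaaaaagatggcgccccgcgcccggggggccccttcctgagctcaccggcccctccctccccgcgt

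Counted from the transcript start, the site in Ezh2 began at position 4, that in Suz12 at -219 and that in Phf19 at -208, the last on the opposite strand. The letters searched, on both strands of windows of 300 bases around each start that begin at -250, were TTTGGCGC, TTTCCCGC, TTTCGCGC and TTTGCCGC. A window was found for 10 of 10 PRC2 genes, and 3 of the 10 held such an 8-mer, against 556 of 12605 genes (4.41%) with a window that reached 1 TPM in at least 3 samples and 2.26% of all 32851 windows. CCAAT was found for 7 of the 10 and for 42.8% of those expressed genes, in any window, and TTTGAA, the cell cycle homology element, for 3 of the 10 and 14.9%. Of all windows, 37.4% held CCAAT and 17.9% TTTGAA. The windows of Ezh1 and Phf1 held none of these letters. By the calls given below, Rbbp4 was higher in tumors without an E2F-type 8-mer, and Suz12 and Phf19 held one without being called. A match says only that the letters are there.

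Ezh2 was the PRC2 gene with the widest range. Tumor GB344 had 108, tumor GB359 161 and tumor GB370 156 TPM, and the adjacent cerebellum of these mice had 55.6, 37.0 and 14.3 TPM in the same order. In Brca2 mutant cerebellum (mice GB361, GB508 and GB512) it was 12.6, 8.14 and 16.9 TPM, and in Trp53 mutant cerebellum (mice GB517, GB519 and GB520) 11.9, 12.6 and 11.1 TPM. Every tumor was above every other sample, and the adjacent samples of mice GB344 and GB359 lay between the tumors and the controls. Adjacent GB370 lay within the range of the controls, above all of them but GB512. The gene (Entrez 14056) lies at chr6:47530274-47595270.

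Against the 6 control cerebella together, Ezh2 rose in tumors by 3.44 on the log2(TPM + 1) scale (SE 0.198, limma, Benjamini-Hochberg adjusted p = 1.24e-07, n = 3 and 6). The ratio of mean levels was 11.6, and its difference stood at rank 246 from the top among 16241 tested genes. Against adjacent cerebellum it rose by 2.13 (SE 0.460, adjusted p = 0.00892, limma, n = 3 and 3), but with the mouse as a block, which pairs each tumor with its own cerebellum, the adjusted p was 0.0158 and the call was lost. A gene was called when the adjusted p was under 0.01 and the absolute log2 difference at least 1.

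Ezh1 was lowest in the tumors and highest in adjacent cerebellum. Its level was 21.1, 32.5 and 24.2 TPM in the tumors, 67.2, 69.7 and 69.8 TPM in adjacent cerebellum, 55.3, 48.6 and 55.2 TPM in Brca2 mutant cerebellum and 66.9, 64.3 and 59.9 TPM in Trp53 mutant cerebellum. The tumors were below all 9 other samples, and the adjacent samples were above the controls by a small margin. The gene (Entrez 14055) lies at chr11:101191115-101226463.

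Ezh1 fell in tumors by 1.15 (SE 0.141, limma adjusted p = 3.25e-05) against the controls and by 1.40 (SE 0.172, limma adjusted p = 9.50e-04) against adjacent cerebellum. The mean level of the control groups was 2.25 times that of the tumors. Adjacent and control cerebellum differed by 0.24 (95% confidence interval 0.03 to 0.46, limma adjusted p = 0.105), which was not called.

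**Figure D1:**
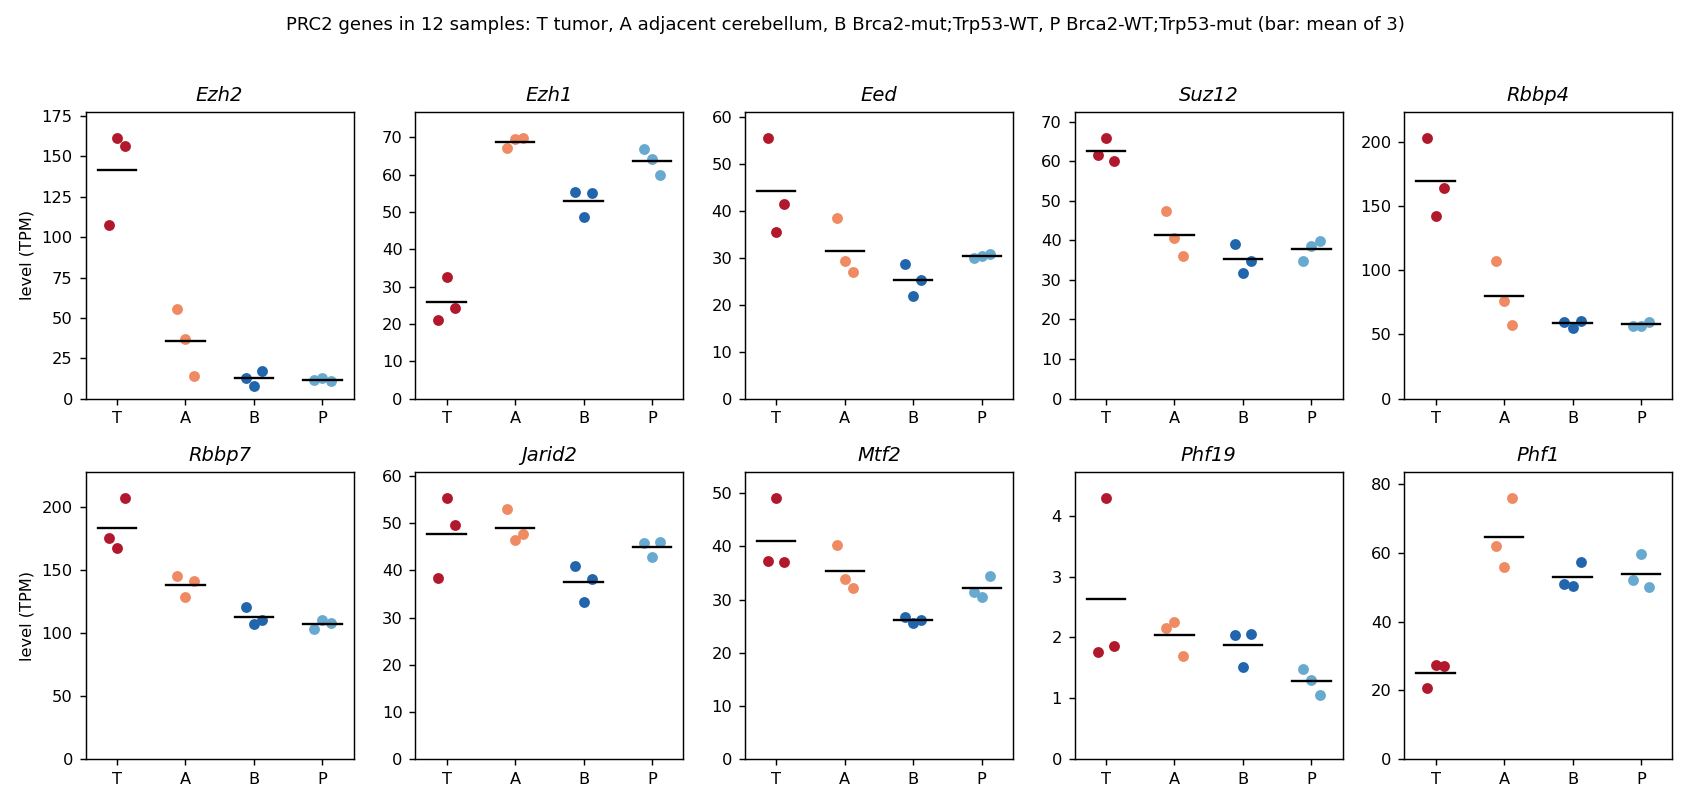
Level in TPM (y axis, linear from 0, a scale of its own in each panel) of the 10 PRC2 genes in tumors (T), adjacent cerebellum (A), Brca2 mutant cerebellum (B) and Trp53 mutant cerebellum (P), with 1 point a sample and a bar at the mean of 3. Ezh2 is at 108 to 161 TPM in tumors and at most 16.9 in controls, while Ezh1 and Phf1 are lowest in the tumors.

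The balance of the catalytic subunits turned over between the tissues. Of the summed Ezh1 and Ezh2 TPM, Ezh2 made up 83.6, 83.2 and 86.6% in the tumors, 45.3, 34.7 and 17.0% in adjacent cerebellum of the same mice, 18.5, 14.4 and 23.4% in Brca2 mutant cerebellum, and 15.1, 16.3 and 15.6% in Trp53 mutant cerebellum. The group means were 84.5% ± 1.85 (SD, n = 3), 32.3% ± 14.3, 18.8% ± 4.52 and 15.7% ± 0.644. The tumors were close to each other and far from the rest, the adjacent samples were spread widely, and the 2 control groups overlapped.

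In the controls Ezh1 was 3.28 to 5.97 times as high as Ezh2, and in the tumors Ezh2 was 4.96 to 6.46 times as high as Ezh1. Adjacent cerebellum kept more Ezh1 than Ezh2 in all 3 mice, by 1.21 to 4.89 times. The summed level of both genes was 129 to 194 TPM in tumors, 84.1 to 123 in adjacent cerebellum and 56.7 to 78.7 in controls, so the tumor total was above that of every other sample. A share of TPM within a sample does not change when the sample is rescaled.

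**Figure D2:**
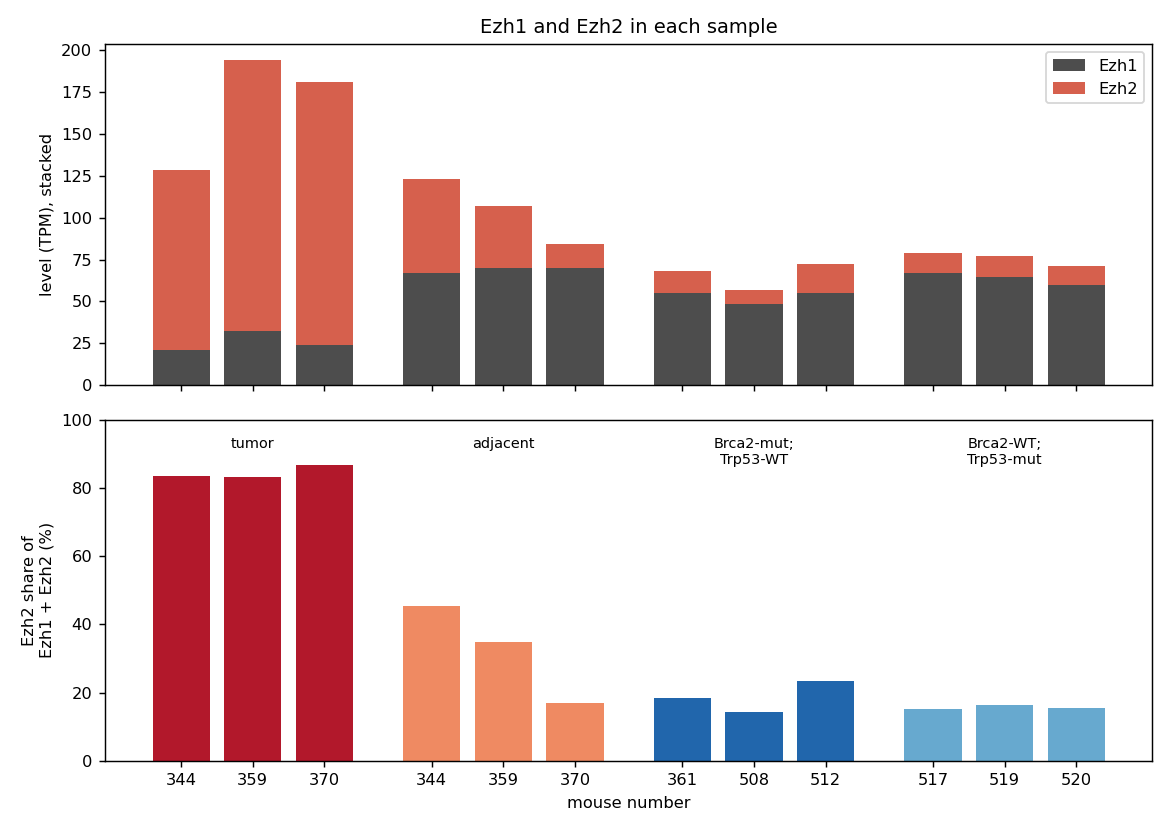
Upper panel, stacked levels of Ezh1 and Ezh2 in TPM in each sample; lower panel, the share of Ezh2 in their sum in percent, by mouse number and group. The tumors stand at 83.2 to 86.6%, the adjacent samples at 17.0 to 45.3% and the controls at 14.4 to 23.4%.

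These are bulk samples, in which fewer cells of a type and less RNA per cell cannot be told apart, and the cell makeup differed between the groups. The 14 proliferation genes (among them Top2a and Mki67) summed to 1839 to 2248 TPM in tumors and 123 to 218 TPM in controls, and the 8 granule progenitor markers (among them Atoh1 and Mycn) to 2178 to 2810 against 68.0 to 87.9 TPM. All 14 and all 8 were called higher in tumors, and Atoh1 was under 1 TPM in all 6 controls. Markers of mature cerebellar cells moved the other way, with 7 of 8 granule neuron, 6 of 6 Purkinje, 5 of 6 astrocyte and Bergmann glia and 6 of 6 oligodendrocyte markers called lower. The 8 granule neuron markers summed to 197 to 509 TPM in tumors, 1800 to 2371 in adjacent cerebellum and 2153 to 2790 in controls, and the 6 oligodendrocyte markers to 95.7 to 318, 1717 to 4644 and 3455 to 5319. Of 7 microglia markers 3 were called higher, of 6 endothelial markers 1 was lower, and by limma 0 of 5 choroid plexus markers (Ttr, Folr1, Kl, Clic6 and Otx2) were called, 2 with an unadjusted p under 0.05. Of all genes tested in this comparison 14.4% were called higher and 21.5% lower, and 73.5% had an unadjusted limma p under 0.05. None of these lists was at 0 in a group, and their part in the PRC2 differences was not tested.

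Within adjacent cerebellum the same measures followed the mice. The proliferation genes summed to 831, 598 and 181 TPM and the granule progenitor markers to 821, 708 and 121 TPM in mice GB344, GB359 and GB370, in the same order as the Ezh2 levels of 55.6, 37.0 and 14.3 TPM. Ezh1, at 67.2 to 69.8 TPM, hardly differed between these 3 samples. Adjacent GB370 had a proliferation sum within the control range (123 to 218 TPM), above every control but GB512. Its progenitor sum was above the control range (68.0 to 87.9 TPM). Among the controls the highest proliferation sum, 218 TPM, belonged to Brca2 mutant cerebellum GB512, which also had the highest Ezh2 level, 16.9 TPM.

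**Figure D3:**
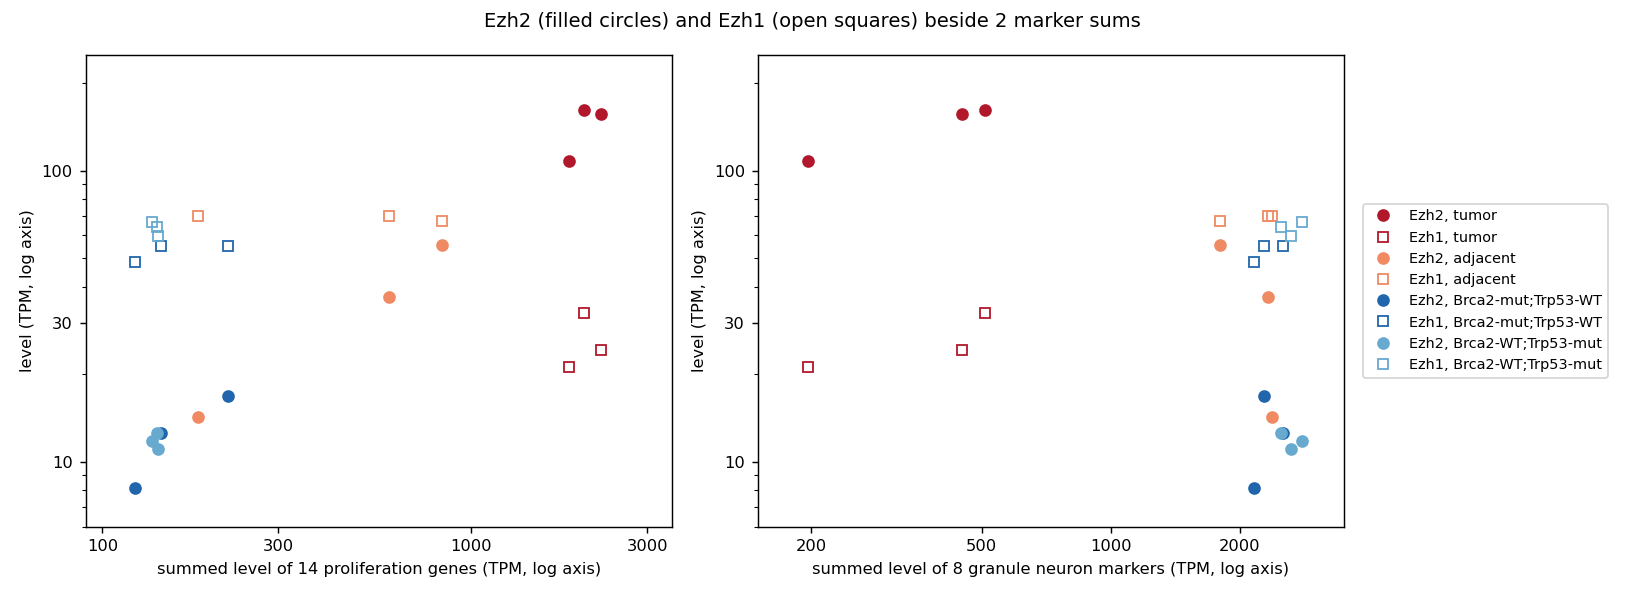
Level of Ezh2 (filled circles) and Ezh1 (open squares) in TPM against the summed TPM of 14 proliferation genes (left) and of 8 granule neuron markers (right), log axes, 1 pair of points a sample. Adjacent samples GB344 and GB359 lie between the controls and the tumors for Ezh2 and the proliferation sum, and beside the controls for Ezh1 and the granule neuron sum.

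The PRC2 genes did not move as a block. Against the controls 2 of the 10 were called higher in tumors (Ezh2 and Rbbp4) and 2 lower (Ezh1 and Phf1), where 14.4% of all 16241 tested genes were called higher and 21.5% lower. Their shares were thus close to the background. The median difference of the 10 was 0.55, against -0.11 over all genes tested. Under quantile normalization the median of all genes moved from -0.11 to 0.06 in this comparison and from -0.14 to 0.14 in that with adjacent cerebellum, so small differences depend on the scaling.

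Rbbp4 (Entrez 19646, chr4:129307100-129335370), for the chaperone subunit shared with other chromatin complexes, was at 203, 142 and 164 TPM in tumors, 107, 76.3 and 57.3 TPM in adjacent cerebellum, and 55.1 to 60.6 TPM in the 6 controls. It rose by 1.51 (SE 0.102, limma adjusted p = 3.61e-07) against the controls. Against adjacent cerebellum the difference was 1.104 (SE 0.246) with a limma adjusted p of 0.010002, just above the threshold, and with the mouse as a block the adjusted p was 0.00610, which passed. As for Ezh2, adjacent GB344 had the highest of the 3 adjacent values and adjacent GB370 was within the control range.

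Rbbp7 (Entrez 245688, chrX:162760372-162779090), its close paralog, was at 176, 167 and 207 TPM in tumors, 145, 128 and 142 TPM in adjacent cerebellum and 103 to 120 TPM in controls. The difference from the controls, 0.73 (SE 0.0825, limma adjusted p = 1.83e-05), was under the fold minimum, although the groups did not overlap. Rbbp4 made up 53.6, 46.0 and 44.3% of the summed Rbbp4 and Rbbp7 level in the tumors and 33.3 to 35.8% in the controls. The 2 transcripts are alike in sequence, and how reads common to both were divided was not tested.

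The core genes Suz12 (Entrez 52615, chr11:79993106-80034123) and Eed (Entrez 13626, chr7:89954654-89980976) differed less. Suz12 was at 61.5, 65.8 and 60.0 TPM in tumors and 31.8 to 39.8 TPM in controls, a difference of 0.76 (95% confidence interval 0.57 to 0.96, limma adjusted p = 2.25e-05). Eed was at 55.6, 35.5 and 41.5 TPM in tumors and 22.0 to 30.8 TPM in controls, a difference of 0.63 (95% confidence interval 0.29 to 0.97, limma adjusted p = 0.00357). In both genes all tumors were above all controls, and both differences lay under the fold minimum of 1. Tumor GB344, with the lowest Ezh2 of the tumors, had the highest Eed and Rbbp4.

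Against adjacent cerebellum (47.4, 40.6 and 35.9 TPM for Suz12, and 38.5, 29.3 and 27.05 TPM for Eed) the differences were 0.59 (limma adjusted p = 0.0117) and 0.46 (limma adjusted p = 0.109). For Suz12 the tumors and the adjacent samples did not overlap, and for Eed they did. The tumor mean was 1.58 times the control mean for Eed and 1.71 times for Suz12, beside 11.6 times for Ezh2.

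Among the Polycomb-like genes, Phf1 (Entrez 21652, chr17:26933127-26937908) was the one that fell. It was at 20.6, 27.3 and 26.97 TPM in tumors, 61.9, 56.0 and 75.9 TPM in adjacent cerebellum, 51.1, 50.3 and 57.2 TPM in Brca2 mutant cerebellum and 52.1, 59.8 and 49.9 TPM in Trp53 mutant cerebellum. The tumors were below every other sample. Phf1 fell by 1.08 against the controls (SE 0.107, limma adjusted p = 6.59e-06) and by 1.34 against adjacent cerebellum (SE 0.174, limma adjusted p = 0.00118). The first call rested on the fold minimum, since the difference was -0.96 under median-of-ratios scaling, -0.95 under quantile normalization and -0.95 without tumor GB344.

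Mtf2 (Entrez 17765, chr5:108065660-108109219) was at 37.2, 49.1 and 37.0 TPM in tumors, 40.2, 33.8 and 32.3 TPM in adjacent cerebellum and 25.6 to 34.5 TPM in controls, and was not called (difference from controls 0.48, SE 0.128, limma adjusted p = 0.00664). Phf19 (Entrez 74016, chr2:34893752-34914353) was the lowest of the 10 genes, at 1.76, 4.29 and 1.86 TPM in tumors and 1.05 to 2.06 TPM in controls. Its value in tumor GB359 stood apart from those of the other tumors, and its difference of 0.45 (95% confidence interval -0.06 to 0.95) had a limma adjusted p of 0.102.

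As a result the leading Polycomb-like transcript changed. Mtf2 made up 62.4, 60.9 and 56.2% of the summed Mtf2, Phf1 and Phf19 level in the tumors, and 30.5 to 40.4% in the controls and 29.4 to 38.6% in adjacent cerebellum. Phf1 made up 33.8 to 41.0% in the tumors, and 58.4 to 67.04% and 59.4 to 69.1% in those tissues. The sum of the 3 genes was 59.6 to 80.6 TPM in tumors, 77.4 to 91.7 TPM in controls and 92.1 to 110 TPM in adjacent cerebellum. The tumor total thus overlapped that of the controls, where the shares did not, and was below that of adjacent cerebellum.

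Jarid2 (Entrez 16468, chr13:44730774-44921643), for the accessory subunit of the other PRC2 form, was at 38.4, 55.3 and 49.7 TPM in tumors, 53.0, 46.4 and 47.7 TPM in adjacent cerebellum, 40.9, 33.4 and 38.3 TPM in Brca2 mutant and 45.9, 42.9 and 46.0 TPM in Trp53 mutant cerebellum. The tumors overlapped both tissues. The difference from the controls was 0.20 (95% confidence interval -0.10 to 0.50, limma adjusted p = 0.203) and from adjacent cerebellum -0.05 (95% confidence interval -0.43 to 0.34, limma adjusted p = 0.819). The latter turned to 0.12 under median-of-ratios scaling and to 0.15 under quantile normalization. Jarid2 lies on chromosome 13, where the median log2 difference of 628 genes from the control mean was -0.46, -0.25 and -0.37 in tumors GB344, GB359 and GB370, beside -0.27 to 0.21 on the other chromosomes that hold these genes. The differences of Jarid2 itself were -0.09, 0.42 and 0.27. On chromosome 6, which holds Ezh2, the medians were -0.10, 0.18 and 0.21 in the same order, and the Ezh2 differences were 3.07, 3.65 and 3.61. The part of either chromosome in the differences of these genes was not tested.

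**Figure D4:**
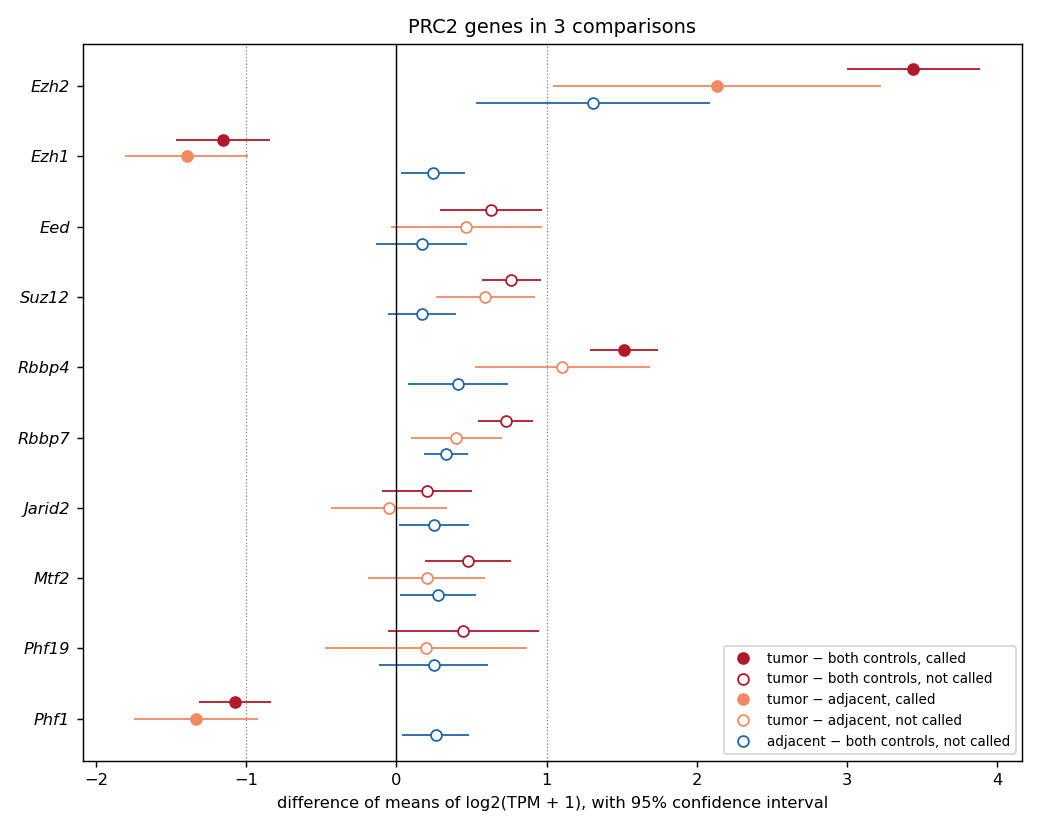
Difference of the group means of log2(TPM + 1) for the 10 PRC2 genes with its 95% confidence interval (x axis), tumor minus both control groups, tumor minus adjacent cerebellum and adjacent cerebellum minus both control groups. Filled points were called, open points were not, and dotted lines mark the fold minimum of 1. Ezh2 (3.44 and 2.13) and Ezh1 (-1.15 and -1.40) stand on opposite sides in both tumor comparisons.

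Set beside the adjacent cerebellum of the same mice, the tumors had 1 of the 10 genes called higher (Ezh2) and 2 called lower (Ezh1 and Phf1), where 4.76% of 15845 tested genes were called higher and 18.0% lower. That split of all genes was 755 higher and 2852 lower as deposited, 1282 and 2486 after median-of-ratios scaling and 1648 and 2136 after quantile normalization. The mouse block kept the counts at 1 and 2, with Rbbp4 in place of Ezh2 among the higher genes. This comparison shares its tumors with that against the controls, so the 2 are not independent.

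Leaving out adjacent GB344 and GB359 together, the samples with high proliferation sums, left adjacent GB370 alone, whose spread was then assumed to be like that of the tumors. The samples left out also had the higher Ezh2 levels, so a larger Ezh2 difference followed from the choice and is not a test. Ezh1 was -1.42 (limma adjusted p = 0.0299) and Phf1 -1.58 (limma adjusted p = 0.0158), so neither was called with 1 sample in that group. That alternative was chosen after the values were seen.

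Adjacent cerebellum was also compared with the tumor-free cerebella. Its mice carried both mutations and no control group did, so the place beside a tumor and the genotype cannot be told apart. By limma 0 of the 10 genes were called in either direction, where 0.224% of 16091 genes were called higher and 0.0124% lower. An unadjusted p under 0.05 was found for 7 of the 10 and for 34.5% of all tested genes. Ezh2 was 1.31 higher (SE 0.349, limma adjusted p = 0.0354) and Rbbp7 0.33 higher (95% confidence interval 0.18 to 0.48, limma adjusted p = 0.0166), and neither passed. Without adjacent GB370 the Ezh2 difference was 1.84 (limma adjusted p = 7.87e-04) and was called. That sample had the lowest Ezh2 level of the adjacent samples, so a larger difference followed from leaving it out and is not a test. With adjacent GB370 alone, whose Ezh2 level lay within the control range but above every control except GB512, the Ezh2 difference was 0.24.

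Among the tumor-free cerebella, 0 of the 10 genes were called by limma between Brca2 mutant and Trp53 mutant tissue, where 0.0128% of 15575 genes were called higher and 0.0449% lower. At an unadjusted p under 0.05 were 4 of the 10 and 20.1% of all tested genes. Ezh2 differed by 0.03 (95% confidence interval -0.50 to 0.55, limma adjusted p = 0.960) and Ezh1 by -0.26 (95% confidence interval -0.44 to -0.08, limma adjusted p = 0.146). The smallest adjusted p was that of Mtf2 (-0.29, limma adjusted p = 0.116), at 26.7, 25.6 and 26.1 TPM against 31.4, 30.6 and 34.5 TPM. Ezh1, Eed and Jarid2 were also lower. Phf19 went the other way, at 2.04, 1.52 and 2.06 TPM against 1.05 to 1.48 TPM (0.34, 95% confidence interval -0.02 to 0.69, limma adjusted p = 0.277). Both alleles differ between these groups and cannot be told apart. The 5 choroid plexus markers summed to 885, 29.1 and 36.7 TPM in Brca2 mutant and 3959 to 5177 TPM in Trp53 mutant cerebellum. The 6 Purkinje markers summed to 7540 to 8961 TPM in Brca2 mutant and 5687 to 6099 TPM in Trp53 mutant cerebellum, without overlap, and by limma 0 of the 6 were called, all 6 with an unadjusted p under 0.05. The part of either cell type in these small differences was not tested.

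The remaining PRC2 accessory genes were few. Epop, which joins PRC2 to elongin, was at 31.6, 29.5 and 19.8 TPM in tumors and 4.55 to 6.19 TPM in controls and rose by 2.11 (SE 0.154, limma adjusted p = 6.35e-07). Lcor, whose locus also encodes the PRC2 accessory protein PALI1, fell by 1.14 (SE 0.223, limma adjusted p = 9.64e-04), and by 0.93 under quantile normalization, where it was not called. Aebp2, the partner of JARID2, differed by 0.28 (limma adjusted p = 0.0114) and was not called. The PRC2 inhibitor Ezhip, listed under its older symbol AU022751, did not exceed 0.331 TPM in any sample and was not tested.

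Of the enzymes that remove the mark, Kdm6a differed by -0.01 (95% confidence interval -0.41 to 0.38, limma adjusted p = 0.945) and Kdm6b by 0.65 (limma adjusted p = 3.66e-04), under the fold minimum. Tumor levels were 18.4 to 27.6 TPM for Kdm6a, overlapping the controls at 17.6 to 28.2 TPM, and 51.8 to 52.9 TPM for Kdm6b, above all controls at 26.9 to 39.8 TPM.

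PRC1, the complex that reads the methyl mark and ubiquitylates histone H2A, had 4 of the 20 genes reported here called higher and 3 lower in tumors against controls, again beside 14.4% and 21.5% of all genes. This list is incomplete, since 1 gene was taken out of it after its values were seen, and its counts are given as a description of the 20 genes only. Among the chromobox genes, whose proteins bind the mark, Cbx2 and Cbx7 went in opposite directions. Cbx2 was at 37.5, 36.7 and 29.0 TPM in tumors, 15.3, 11.5 and 2.47 TPM in adjacent cerebellum and 3.06 to 4.22 TPM in controls, and rose by 2.90 (SE 0.129, limma adjusted p = 3.13e-08). Cbx7 was at 3.42, 19.4 and 14.7 TPM in tumors, 75.5, 92.7 and 98.3 TPM in adjacent cerebellum and 73.2 to 94.3 TPM in controls, and fell by 2.87 (SE 0.384, limma adjusted p = 6.48e-05). Cbx2 therefore had the high tumor level and the graded adjacent levels of Ezh2, and Cbx7 the low tumor level of Ezh1.

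Cbx6 also fell, by 1.74 (SE 0.0676, limma adjusted p = 1.80e-08), from 145 to 169 TPM in controls to 45.5 to 46.6 TPM in tumors. Phc1, a polyhomeotic subunit, rose by 1.38 (SE 0.176, limma adjusted p = 4.50e-05). The other called PRC1 genes, named after their values were seen, were the ubiquitin ligase Rnf2 (1.33) and its partner Bmi1 (1.32) among the higher and Phc3 (-1.04) among the lower. Under both other scalings Phc3 was no longer called and Phc2 and Kdm2b were, which gave 6 higher and 2 lower. Of all 16241 tested genes, 2660 were then higher and 3177 lower under median-of-ratios scaling, and 2824 and 2979 under quantile normalization. Against adjacent cerebellum limma called 0 of these PRC1 genes higher and 2 lower, beside 4.76% and 18.0% of all genes, with Cbx2 at 1.98 (limma adjusted p = 0.0223). At an unadjusted p under 0.05 were 10 of the 20 and 57.1% of all tested genes.

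**Figure D5:**
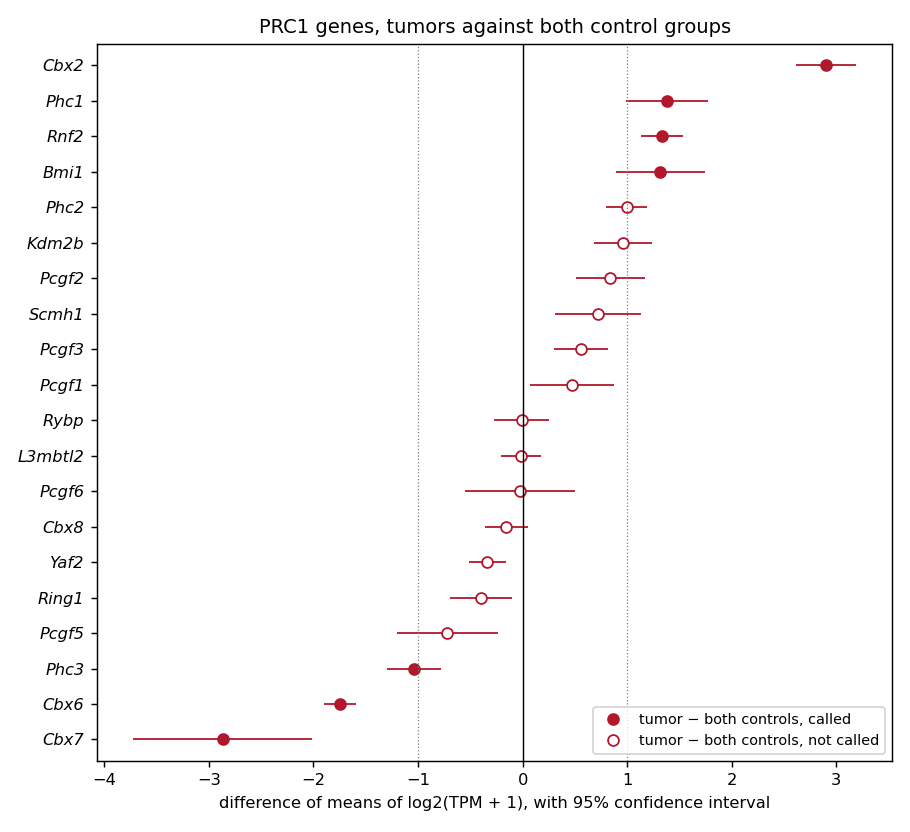
Difference of the means of log2(TPM + 1) between tumors and both control groups for 20 PRC1 genes with its 95% confidence interval (x axis), sorted by size. Filled points were called, and dotted lines mark the fold minimum of 1. Cbx2 (2.90) is at the top and Cbx7 (-2.87) at the bottom.

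The Polycomb deubiquitinase genes had 2 of 8 called higher and 0 lower by limma, near the 14.4% of all genes for the former and beside 21.5% for the latter. Asxl3 rose by 1.75 (SE 0.152, limma adjusted p = 2.39e-06) and Asxl1 by 1.21 (SE 0.104, limma adjusted p = 2.33e-06). Both were at intermediate levels in adjacent cerebellum, 1.52 to 3.46 TPM for Asxl3 and 27.2 to 35.7 TPM for Asxl1.

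Of 20 genes for partners of RBBP4 or RBBP7 in other complexes, 9 were called higher and 1 lower, where 14.4% and 21.5% of all tested genes were. The CAF-1 chaperone genes had the largest increases among the 20. Chaf1b was at 49.7, 51.7 and 69.7 TPM in tumors, 12.4, 13.7 and 3.17 TPM in adjacent cerebellum and 1.07 to 1.81 TPM in controls, and rose by 4.69 (SE 0.150, limma adjusted p = 8.40e-09). Chaf1a rose by 2.74 (SE 0.146, limma adjusted p = 7.91e-08). Chd5, a remodeler gene of the neuronal form of NuRD, was at 4.89, 2.32 and 2.53 TPM in tumors and 16.8 to 18.6 TPM in controls and fell by 2.16 (SE 0.169, limma adjusted p = 1.09e-06). The difference in frequency between this list and the 10 PRC2 genes was not tested.

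Classical PRC2 targets were checked as levels. The 39 Hox genes summed to 3.97 to 5.88 TPM in tumors, 7.66 to 10.05 TPM in adjacent cerebellum and 7.19 to 13.03 TPM in 5 of the 6 controls, while Brca2 mutant cerebellum GB512 had 36.8 TPM. In tumors against controls 4 of the 39 passed the expression filter and 0 were called by limma, 3 with an unadjusted p under 0.05, as had 73.5% of all tested genes. The INK4 locus behaved differently. Cdkn2a was at 126, 115 and 321 TPM in tumors, 13.996, 17.3 and 5.36 TPM in adjacent cerebellum and 0 to 7.74 TPM in controls, and rose by 6.44 (SE 0.655, limma adjusted p = 8.03e-06). Cdkn2b rose by 3.22 (SE 0.145, limma adjusted p = 3.24e-08). No histone mark was measured in the data used here.

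The genes whose pattern over the 12 samples was most like that of Ezh2 were Chek1, Cenpn, Tmsb10, Mad2l1 and Igsf9. Likeness was the root mean square difference of log2(TPM + 1) after centring each gene, and it was 0.144 to 0.155 for these 5, against a median of 1.54 over 16497 genes. Chek1 and Mad2l1 act in cell cycle checkpoints and Cenpn at the centromere, and Tmsb10 binds actin. Mad2l1 had group means of 138 TPM in tumors, 33.4 in adjacent cerebellum and 11.96 over the controls, near those of Ezh2 (142, 35.6 and 12.2 TPM).

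The genes most like Ezh1 were Ccsap, Slc25a42, N4bp2l1, Dennd4b and the noncoding RNA Malat1, at 0.0614 to 0.103 against a median of 0.617. Ccsap had group means of 14.2, 40.7 and 34.3 TPM in tumors, adjacent and control cerebellum, a shape like that of Ezh1 (26.0, 68.9 and 58.3 TPM). These likenesses rest on 12 samples of 4 groups that share tissue and mice, and they are given as a description.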

How the data were processed

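Poly(A) RNA of 12 mouse samples in 4 groups of 3 was sequenced. The submitters' processing notes name Salmon 0.8.1 and mm10, and per the study's methods transcripts were summed to genes; the values the authors deposited are TPM, and no filter is stated. The TPM sum to 999793 to 999876 in each sample. Counts were not used here, so depth is unknown, counting error cannot be given, and precision rests on the spread between samples.

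TPM were transformed to log2(TPM + 1), which understates changes of low genes. A gene entered a comparison if 3 or more of its samples reached 1 TPM. Linear models in limma 3.58.1 (R 4.3.3), moderated with a mean-variance trend, were fitted to the groups compared only. P-values were adjusted over all tested genes (Benjamini-Hochberg). Calls needed an adjusted p below 0.01 and a log2 difference of 1 or more in size. The 4 comparisons were tumors against both control groups together, tumors against adjacent cerebellum, adjacent cerebellum against both control groups, and Brca2 mutant against Trp53 mutant cerebellum. They share samples. Tested on simulated data with 200 genes changed by 2 on the log2 scale, the fits recovered 193, 142, 195 and 186 of the 200, in that order. They called 3, 0, 2 and 1 unchanged genes. The changed genes were drawn only from those above a minimum control level, and each sample was simulated independently. Low genes such as Phf19 and the pairing of samples were thus not covered.

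Mouse numbers pair tumor and adjacent samples as pieces of the same animal. The deviations of the pairs from their group means correlated at 0.228, 0.148 and 0.148 over 16498 genes. The fit without a block was kept as the main one because the study names none, and the block fit is given where it changes a call.

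Members and gene lists were chosen with earlier results of these data known. All 10 members are named; from other lists the 2 largest called changes in each direction of tumors against controls, lists of 5 or fewer genes whole, and the 5 genes most like Ezh2 and Ezh1. The lists came from general knowledge of the complexes and cell types. For PRC1, 1 gene is not reported here and was taken out of the list after its values were seen, which changes that list's counts. Promoter windows and positions are from RefSeq (GRCm38.p6). Python 3.11.15 with pandas 2.3.3 and matplotlib 3.10.9 was used. Other settings tried were 0.1 as pseudocount; the filter dropped or raised to 5 TPM; scaling by medians of ratios or by quantiles; moderation without a trend; 1 fit over 4 groups; either control group alone; the mouse block; a looser call at 0.05 without the fold; and samples left out singly.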

Additional observations from a re-analysis of the deposited data

How the results depend on the processing

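The call of Ezh2, Rbbp4 and Ezh1 in tumors against controls held under every alternative run, with log2 differences of 3.34 to 3.63, 1.38 to 1.65 and -1.32 to -1.02. The number of genes lower in that comparison was 1 under median-of-ratios scaling and 1 under quantile normalization, and 1 to 2 with a sample left out, since Phf1 fell under the fold minimum. The number higher was 6 with an adjusted p under 0.05 and no fold minimum. The share of all genes under that looser threshold was not counted in any comparison. An unadjusted limma p under 0.05 was found here for 8 of the 10 and for 73.5% of all tested genes. Against adjacent cerebellum the number higher was 0 with a pseudocount of 0.1, with no filter and without the trend, 2 with a minimum of 5 TPM, both other scalings and all 4 groups in a fit, 4 with the looser threshold, and 0 to 2 with a sample left out, while the number lower was 0 with adjacent GB344 and GB359 left out together. Ezh2 lost that call with an adjusted p of 0.0108 (pseudocount), 0.0158 (no filter) and 0.0107 (no trend), and without tumor GB344 (0.0156), tumor GB359 (0.0315), tumor GB370 (0.0314) or adjacent GB359 (0.0228). With the mouse as a replicate block the counts were 1 and 2, its log2 difference 2.13 and its adjusted p 0.0158, and Rbbp4 passed at 0.00610; the block changed no other call. For adjacent cerebellum against controls the number higher was 2 with the looser threshold and 0 to 1 with a sample left out.

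Directions that turned belonged to differences that were not called. Against adjacent cerebellum Jarid2 was 0.12 and 0.15 under median-of-ratios scaling and quantile normalization and -0.16 to 0.10 with a sample left out, and Phf19 was -0.11 to 0.36. Between the control groups Phf1 was 0.0521 under median-of-ratios scaling and 0.0451 under quantile normalization and -0.0846 to 0.0482 with a sample left out, Ezh2 -0.20 to 0.28 and Rbbp4 -0.0073 to 0.0596. With adjacent GB370 alone against the controls Eed was -0.0341, Suz12 -0.0161 and Rbbp4 -0.0222. The cause was not tested. Over all genes, the number higher against adjacent cerebellum was 755 and, across the other fits, 465 to 1648, and the number lower between 2136 and 3111. For adjacent cerebellum against controls 36 and 2 became 2 to 53 and 0 to 22, and between the control groups 2 and 7 became 2 and 1 to 19. Depth is unknown, so no limit of detection is given for Phf19, Ezhip or the Hox genes.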

Other observations

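The Hox sum of Brca2 mutant cerebellum GB512 came mainly from neighbouring genes of the HoxA cluster, named after their values were seen. Hoxa5 was at 7.45 TPM, Hoxa6 at 6.48 TPM and Hoxa7 at 10.8 TPM in that sample, while in the other 11 samples they did not exceed 0.392, 0 and 0.475 TPM. The same sample had the highest microglia marker sum of the controls, 211 TPM against 105 to 132 TPM, and the highest Ezh2 level of the controls. Leaving it out of the comparison of tumors with controls gave Ezh2 a log2 difference of 3.54 and Ezh1 one of -1.17, and both remained called by limma (adjusted p = 2.26e-07 and 1.08e-04).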
